A study of Homo sapiens with 29 samples.

Results

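HOXB13 encodes a homeobox transcription factor of the posterior HOX group that marks prostate epithelium from development into adult life. In prostate cancer cells HOXB13 is known to bind chromatin together with the androgen receptor and with FOXA1, a forkhead pioneer factor that opens closed chromatin. The accessible sites described here are those in a window around the gene, chr17:46750000-46900000 of build hg19. HOXB13 itself lies at chr17:46802127-46806111 on the minus strand, so its start is the right end of that interval and upstream means a higher coordinate. Peaks of all 29 libraries that overlapped the window were merged where they overlapped or touched, which gave 25 regions of 166696 in the whole data set. Of these, 2 overlapped the gene, 7 lay downstream of it and 16 lay upstream.

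Accessibility was measured by ATAC-seq, which sequences the DNA that a transposase can reach, in the prostate cancer line 22Rv1. Parental cells were treated for 3 h with 0.1% DMSO, with the stereoprobe WX-02-23 at 20 µM, with the stereoprobe WX-02-43 at 20 µM, or with pladienolide B (PladB), a splicing inhibitor that binds SF3B1, at 10 nM or 100 nM, in 3 libraries each. Both engineered lines carried Y36C-PHF5A, a mutant of a splicing factor subunit that lies beside the PladB pocket, in the control groups too. One line could express WT-FOXA1 and the other C258A-FOXA1, a mutant of the cysteine that WX-02-23 engages, under doxycycline (Dox). Each line received Dox with DMSO, with WX-02-23 at 20 µM or with 100 nM PladB, in 2 libraries each, and 2 more libraries came from the WT-FOXA1 line given DMSO and no Dox. The C258A-FOXA1 line had no group without Dox, WX-02-43 was used only in parental cells, and the labels name no change to the cells' own FOXA1 gene. The labels do not say whether replicates came from separate cultures, so p-values measure the spread between these libraries, which may be technical.

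Each library was a list of 62832 to 98193 peaks. A region was called present in a library when a peak overlapped it by at least 1 bp, and a region where none was called may still be accessible at a level that library could not detect. Each peak carries the authors' fold, the reads at its summit over a background that is the larger of the genome average and the local surroundings. The percentile given below is the rank of a peak's p-value within its own list, where 100% would be the strongest peak. Reads at the summit and in the 10 kb around it were recovered from the fold and p columns. The genome background in reads per base, a relative measure of depth, was 0.662 to 1.502 in parental and 0.546 to 1.26 in engineered libraries. The peak names place parental lists and engineered lists in separate processing folders, so cell line and processing batch cannot be told apart. An open site in more cells and a more open site per cell cannot be told apart in these bulk libraries.

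The window was one of sites shared between libraries. Of its 25 regions, 9 (36%) were held by all 29 libraries, against 21.5% of all regions. Only 1 region (4.0%) was held by a single library, against 16.9% of all regions. The median region of the window was present in 25 libraries, and the median region of the whole table in 11. The 9 shared regions were the HOXB13 start itself, the sites 6.23 kb and 50.1 kb downstream, and 6 sites between 17.3 and 88.5 kb upstream.

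**Figure D1:**
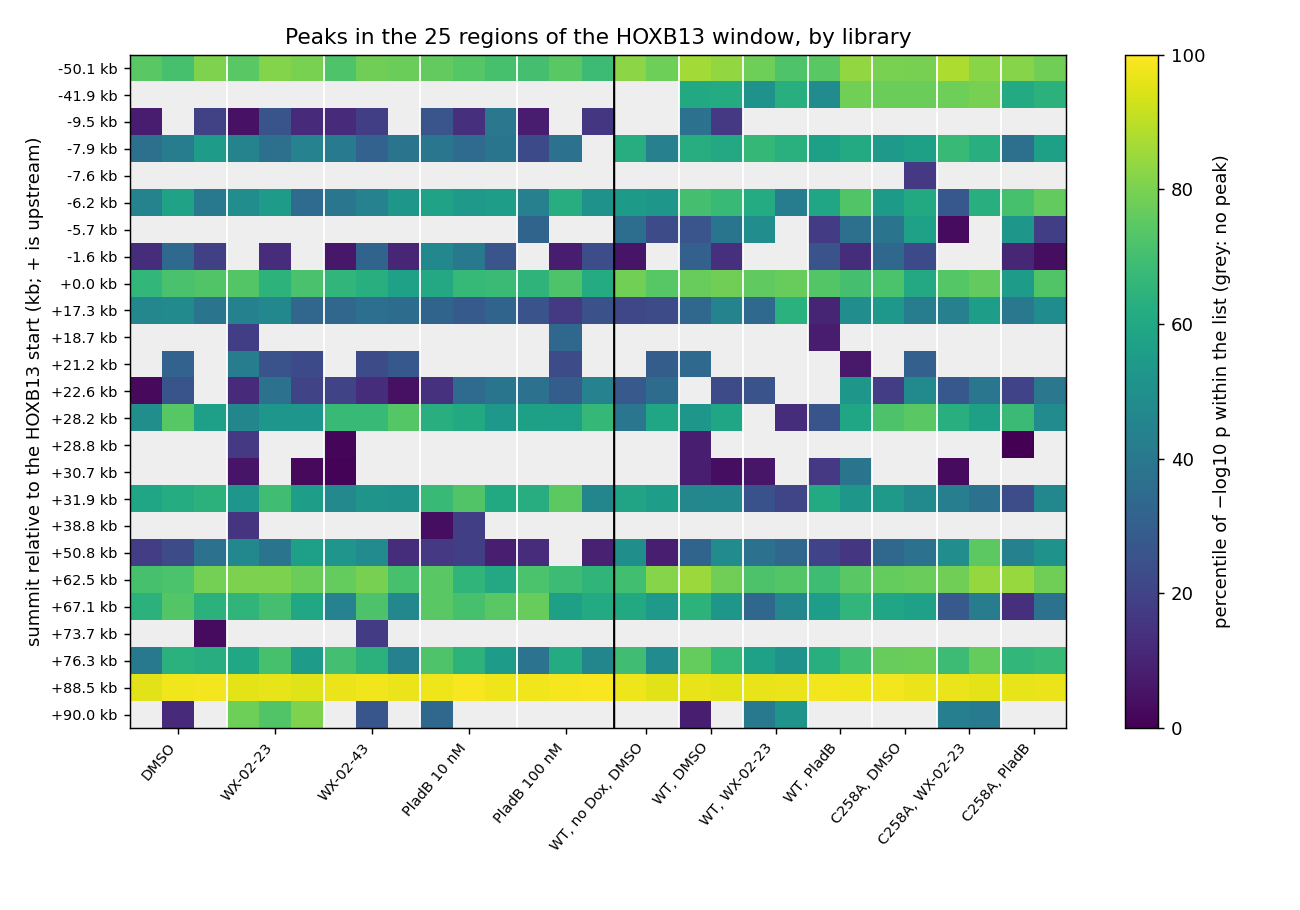
Each row is 1 of the 25 regions of the window, labelled by the distance of its summit from the HOXB13 start in kb, and each column is 1 library, with a black line between parental and engineered libraries. Colour gives the percentile of the peak's −log10 p within its own list and grey marks no peak: 9 rows are filled across all 29 libraries, the row at -41.9 kb is filled in the 12 libraries with Dox and in no other, and the row at +90.0 kb is filled in all 7 WX-02-23 libraries.

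The region at the HOXB13 start, chr17:46805705-46806671, was open in every library. Its median summit lay 5 bp upstream of the start. The authors' fold there was 4.72, 4.94 and 5.22 in parental DMSO, 5.11, 4.50 and 5.13 in WX-02-23, and 4.61, 4.40 and 4.38 in WX-02-43. It was 4.40, 4.92 and 4.88 in PladB at 10 nM and 5.34, 5.63 and 4.997 in PladB at 100 nM. The parental groups overlapped, except that all 3 WX-02-43 values lay below those of DMSO and of PladB at 100 nM, and that PladB at 100 nM lay above PladB at 10 nM.

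In the engineered lines the fold at the start was 5.997 and 5.59 without Dox, 5.15 and 5.45 with Dox and DMSO, 5.52 and 5.60 with WX-02-23, and 5.34 and 4.65 with PladB in the WT-FOXA1 line. The C258A-FOXA1 line gave 4.89 and 4.13 with DMSO, 5.26 and 5.14 with WX-02-23, and 4.41 and 5.39 with PladB. The site stood between the 54.9th and the 78.6th percentile of its list in every library, with 39 to 73 reads at the summit. Counting error alone gives a 95% exact Poisson interval of 27.7 to 53.3 for 39 reads and of 57.2 to 91.8 for 73 reads.

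The position of the summit at the HOXB13 start did not differ beyond the spread of the libraries with WX-02-23. It lay 22.3 ± 35.3 bp upstream of the start (SD, n = 3) in parental WX-02-23 libraries and 36.7 ± 108 bp (SD, n = 12) in the other parental libraries. The difference was -14.3 bp, with a two-sided exact permutation p of 0.859. The spread came from 1 WX-02-43 library, replicate 3, whose strongest summit lay 380 bp upstream, at a second point of cutting within the same region, and without that library the difference was 16.9 bp, of the opposite sign. With the widest peak of each library taken instead it was -99.0 bp (exact permutation p = 0.433).

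That second point was called as a peak of its own in 12 of the 29 libraries. All 3 parental DMSO libraries had 2 peaks at the start, while all 3 WX-02-23 and all 3 WX-02-43 libraries had 1 peak that ran across both points. In the WT-FOXA1 line the order was the other way round, with 1 peak in both DMSO libraries and 2 peaks in both WX-02-23 libraries. The C258A-FOXA1 DMSO libraries had 2 peaks and 1 peak, and both WX-02-23 libraries of that line had 1. PladB groups of parental cells had 2 peaks in 2 of 3 libraries at either dose. The opposite direction in parental and WT-FOXA1 cells was not tested.

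**Figure D2:**
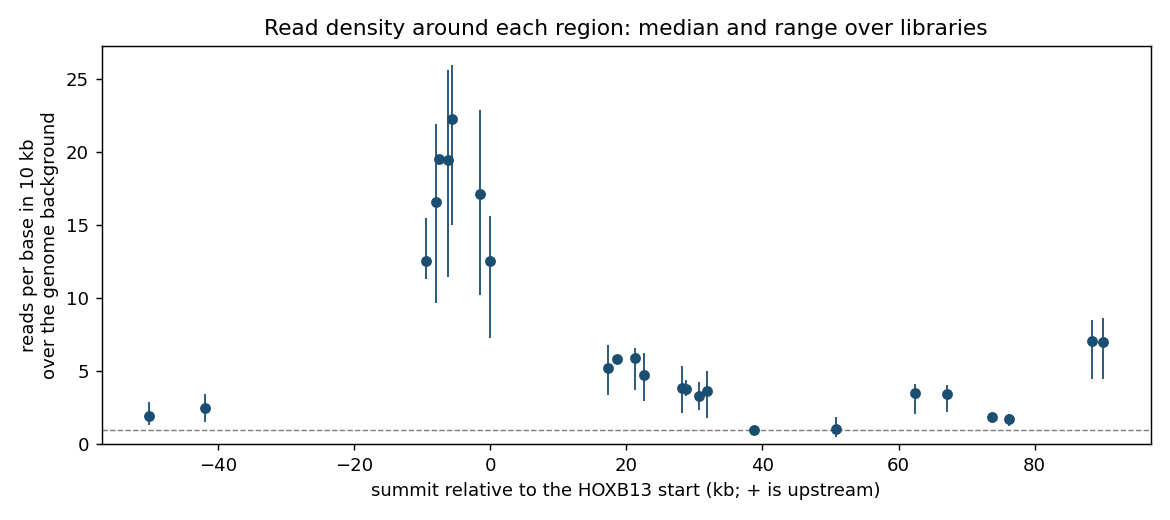
Points give, for each of the 25 regions, the median of the reads per base in the surrounding 10 kb divided by the library's genome background, against the distance of the summit from the HOXB13 start in kb. Medians cover only the libraries with a peak in the region, and bars run from the lowest to the highest of these. Regions from 9.502 kb downstream to the start have medians of 12.5 to 22.2 times the background, and no region upstream of the start exceeds a median of 7.09.

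HOXB13 sat in the most densely cut part of the window. In the 10 kb around the start, libraries held 507 to 902 reads, a density of 12.5 ± 1.93 times the genome background (SD, n = 29). In each list this local density ranked between the 96.5th and the 99.05th percentile of all peaks. The densest point lay 5.67 kb downstream, just past the 3′ end of the gene, at a median of 22.2 times the background. That median covers 13 libraries with a peak there, 12 of them engineered. The site 6.23 kb downstream, held by all 29, had a median of 19.4. Within the same libraries the 2 sites were closer, with means of 21.8 and 21.4 in WT-FOXA1 without Dox. In RefSeq's order of genes in GRCh38.p14, the microRNA gene MIR3185 and then PRAC1 and PRAC2, small genes expressed in prostate and distal gut, follow HOXB13 on that side. Distances to them were not measured, since positions of the other build were not converted. The folds of this stretch were low beside its read numbers: the regions from 9.502 kb downstream to the start had folds of 2.38 to 5.997 with 27 to 83 reads at their summits. The strongest site of the window had folds of 10.6 to 15.9 with 74 to 110 reads.

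The density at the start in each group was used to order the groups. From high to low the means were 14.9 ± 0.200 (SD, n = 2) in C258A-FOXA1 with PladB, 14.8 ± 1.17 (SD, n = 2) in C258A-FOXA1 with DMSO, and 14.48 ± 0.667 (SD, n = 2) in WT-FOXA1 without Dox. WT-FOXA1 with DMSO had 13.8 ± 0.312 (SD, n = 2), C258A-FOXA1 with WX-02-23 had 13.2 ± 0.357 (SD, n = 2), and WT-FOXA1 with PladB had 12.9 ± 0.610 (SD, n = 2). The parental groups followed, with 12.5 ± 0.245 (SD, n = 3) in DMSO, 12.1 ± 1.18 (SD, n = 3) in PladB at 10 nM, 11.9 ± 0.456 (SD, n = 3) in WX-02-23, 11.6 ± 0.315 (SD, n = 3) in PladB at 100 nM and 10.51 ± 2.83 (SD, n = 3) in WX-02-43. The lowest was WT-FOXA1 with WX-02-23, at 8.68 ± 1.75 (SD, n = 2). Neighbours in this order overlapped in their single libraries, with the exception of WT-FOXA1 with DMSO and C258A-FOXA1 with WX-02-23. The order depended on the scale. Divided instead by the median density at regions held by all 29 libraries, parental WX-02-43 was lowest, at 3.28 ± 0.514 (SD, n = 3). On that scale WT-FOXA1 with WX-02-23 had 3.88 ± 0.296 (SD, n = 2). The highest parental mean was 3.63 ± 0.0163 (SD, n = 3), in DMSO.

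With WX-02-23 the density at HOXB13 was lower in the WT-FOXA1 line. The WX-02-23 libraries had 9.92 and 7.45 times the background, and the DMSO libraries 14.03 and 13.6, a log2 ratio of -0.67. Both treated libraries were below both controls, and with 2 libraries a group no test was made. In the C258A-FOXA1 line the values were 13.4 and 12.9 with WX-02-23 and 15.6 and 13.9 with DMSO, a log2 ratio of -0.16. In parental cells they were 12.02, 11.35 and 12.2 with WX-02-23 and 12.8, 12.3 and 12.4 with DMSO, a log2 ratio of -0.08. In these lines as well, every WX-02-23 library was below every DMSO library of its own line.

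The 2 WT-FOXA1 libraries treated with WX-02-23 were also weaker at sites far from HOXB13. Their median local density at the 35901 regions held by all libraries was 2.43 and 2.03 times the background, the lowest of the 29 libraries, against 2.93 in both DMSO libraries. When the density at HOXB13 was scaled to those shared regions instead of the background, the log2 ratio in the WT-FOXA1 line shrank to -0.28, still without overlap (4.09 and 3.67 against 4.78 and 4.64). On that scale the C258A-FOXA1 and parental WX-02-23 groups overlapped their DMSO groups, with log2 ratios of -0.09 and -0.03. Parental WX-02-43, parental PladB at 100 nM and WT-FOXA1 with PladB lay below their DMSO groups without overlap on both scales. Their log2 ratios when scaled to shared regions were -0.15, -0.11 and -0.05. The parental WX-02-43 mean also rested on 1 library. Replicate 3 had 7.24 times the background and the highest background of all libraries, 1.502 reads per base, whereas the other two had 12.2 and 12.1.

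**Figure D3:**
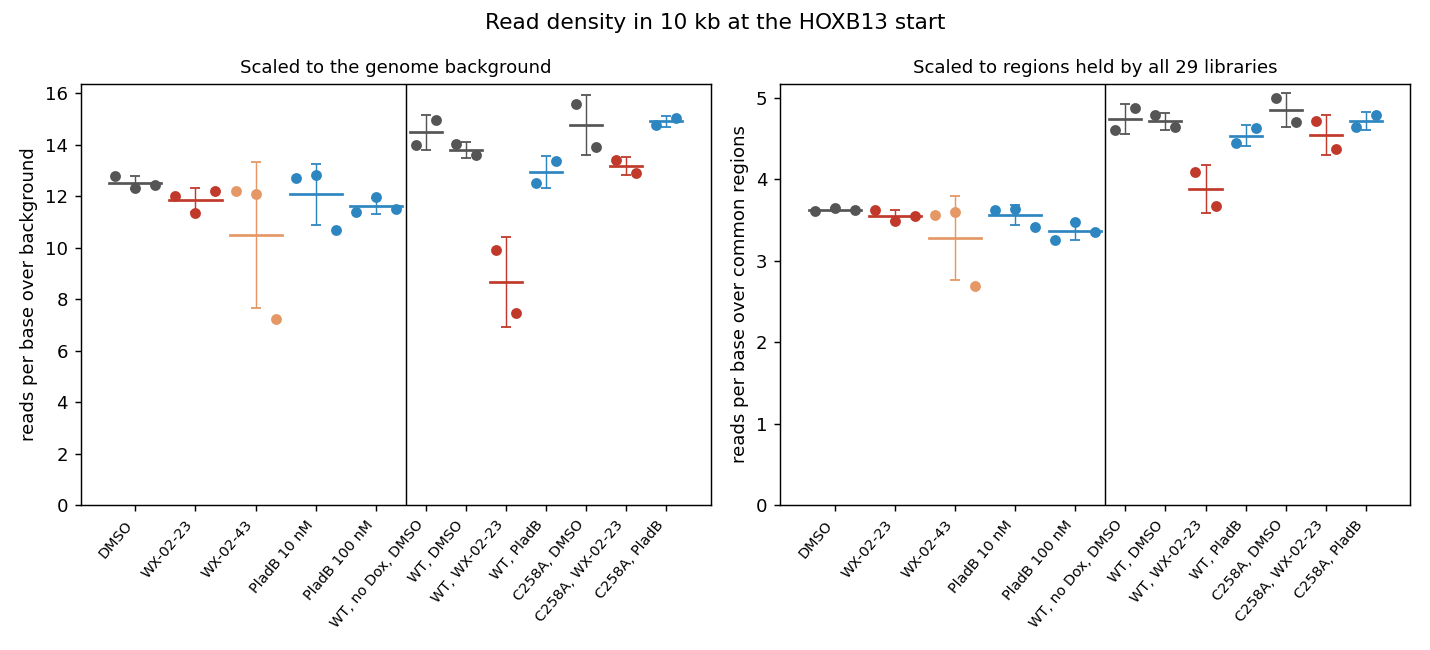
Points are libraries, horizontal lines are group means and error bars are SD (n = 3 in parental groups, n = 2 in engineered groups); the vertical axis is the read density in 10 kb at the HOXB13 start, divided by the genome background on the left and by the median density at regions held by all 29 libraries on the right. The WT-FOXA1 libraries with WX-02-23 are below both DMSO libraries of their line on either scale, at a mean of 8.68 against 13.8 on the left and 3.88 against 4.71 on the right.

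A site inside the HOXB13 gene was absent from most libraries treated with WX-02-23. It lay 1.58 kb downstream of the start, at chr17:46804292-46804692, wholly within the gene, and whether it is exonic or intronic was not determined here. A peak was called there in 1 of 7 WX-02-23 libraries and in 20 of 22 others. In parental cells it was present in 3 of 3 DMSO, 1 of 3 WX-02-23, 3 of 3 WX-02-43, 3 of 3 PladB 10 nM and 2 of 3 PladB 100 nM libraries. The WT-FOXA1 line had it in 1 of 2 libraries without Dox, 2 of 2 with DMSO, 0 of 2 with WX-02-23 and 2 of 2 with PladB. The C258A-FOXA1 line had it in 2 of 2 libraries with DMSO, 0 of 2 with WX-02-23 and 2 of 2 with PladB. The absence under WX-02-23 thus occurred in both lines. Counting only peaks with a −log10 q of at least 5, the site was in 1 of 7 WX-02-23 libraries and 16 of 22 others. At that threshold WT-FOXA1 had it in 0 of 2 libraries without Dox, and both engineered lines kept it in 2 of 2 with Dox and DMSO.

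The peak was weak wherever it was called. The authors' fold was 2.57, 2.90 and 2.63 in parental DMSO, 2.51 in the single WX-02-23 library, replicate 2, and 2.41, 2.89 and 2.57 in WX-02-43. It was 3.33, 3.24 and 2.82 in PladB at 10 nM and 2.63 and 3.07 in PladB at 100 nM. In the engineered lines it was 2.41 without Dox, 2.73 and 2.50 in WT-FOXA1 with DMSO, 2.89 and 2.38 with PladB, 2.91 and 2.63 in C258A-FOXA1 with DMSO, and 2.67 and 2.51 with PladB. These peaks ranked between the 3.74th and the 46.6th percentile of their lists, with 32 to 55 summit reads on a local density of 10.2 to 22.8 times the genome background.

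By the rule that a region is lost when every control and no treated library holds it, this site was lost with WX-02-23 in both engineered lines. In the WT-FOXA1 line 2 of the 21 window regions held in that comparison were lost, where 11.7% of all regions were lost, so the window was near the background. None was gained there, against 1.31% of all regions. In the C258A-FOXA1 line 1 of 20 was lost, where 2.55% of all regions were lost. The call in the WT-FOXA1 line was gone when the lists compared were cut to the shortest of them, 62832 peaks. That cut left 0 lost regions in the window. The call in the C258A-FOXA1 line held, but there the shortest list had 76645 peaks, so the 2 cuts were not alike. With the lists of all 29 libraries cut to the shortest, 3 of 14 engineered libraries held the site. In parental cells the site was in 1 of 3 WX-02-23 and 11 of 12 other libraries, with a Fisher's exact p of 0.0813 and an adjusted p of 1.0 by Benjamini-Hochberg over 135804 regions. No region at all could be called in that comparison, whose smallest adjusted p by Fisher's exact test was 0.286. Without WX-02-23 replicate 2 the site was lost in parental cells too, and p was 0.0330 with an adjusted p of 1.0. In all, 84 regions (0.0504%) had a peak in at most 1 of the 7 WX-02-23 libraries and in at least 20 of the other 22, a pattern defined after this site had been seen.

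At the far upstream edge of the window a site showed the opposite pattern. The region 90.0 kb upstream of HOXB13, chr17:46895965-46896606, held a peak in all 7 WX-02-23 libraries, 3 of 3 in parental cells and 2 of 2 in each engineered line. It held a peak in 4 of the 22 other libraries: DMSO replicate 2, WX-02-43 replicate 2, PladB 10 nM replicate 1 and WT-FOXA1 DMSO replicate 1. PladB at 100 nM gave no peak there in any line, nor did the WT-FOXA1 line without Dox or the C258A-FOXA1 line with DMSO.

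The authors' fold at this site was higher in the libraries with WX-02-23. In parental cells it was 6.67, 5.90 and 7.13 with WX-02-23, against 3.25 in the DMSO library, 3.70 in the WX-02-43 library and 4.005 in the PladB library that held it. The summit held 66, 56 and 63 reads with WX-02-23 and 25, 32 and 31 reads in those other parental libraries. In the engineered lines with WX-02-23 the summit held 27 and 31 reads in WT-FOXA1 and 24 and 30 reads in C258A-FOXA1. It held 22 reads in the WT-FOXA1 DMSO library. None of these summits exceeded the 32 reads of the parental WX-02-43 library, but these counts are not scaled to depth. Divided by the genome background, the summit was 34.9 ± 3.06 (SD, n = 2) in C258A-FOXA1 with WX-02-23. It was 28.6 in the WX-02-43 library, 33.6 in the PladB library and 24.9 in the parental DMSO library. The fold was 4.35 and 4.83 in WT-FOXA1 and 4.81 and 4.32 in C258A-FOXA1 with WX-02-23, and 3.29 in the WT-FOXA1 DMSO library. All 7 folds with WX-02-23 lay above the 4 others, and the parental folds lay above those of the engineered lines. These are values of the strongest peak in each library. Its summit lay at 46896466 in parental DMSO, 46896423 in WT-FOXA1 DMSO, 46896135 in WX-02-43 and 46896153 in PladB. With WX-02-23 the mean summit was 46896124 in parental cells, 46896134 in C258A-FOXA1 and 46896266 ± 194 (SD, n = 2) in WT-FOXA1. The folds and reads thus compare different points of cutting. In the WT-FOXA1 line the summit over the genome background was 29.9 and 24.7 with WX-02-23 and 25.3 in the DMSO library, which overlapped, and the local density was 6.01 and 4.48 against 6.89 times the background, so the higher fold there went with a lower local density. The percentile within the list was 77.8, 72.9 and 80.6 with WX-02-23 in parental cells and 40.6 and 51.6 in the WT-FOXA1 line and 43.0 and 41.5 in the C258A-FOXA1 line, against 8.23 to 33.8 in the other 4 libraries.

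This region was made of 2 points of cutting. In 6 of the WX-02-23 libraries it was called as 2 peaks, and in parental replicate 2 as 1 peak that ran from 46895987 to 46896601 and covered both. Of the 4 other libraries, WX-02-43 replicate 2 had both peaks, PladB 10 nM replicate 1 had the one nearer to HOXB13 only, and the DMSO libraries of parental and WT-FOXA1 cells had the farther one only.

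The call at this site depended on how presence was counted. In parental cells it was in 3 of 3 WX-02-23 and 3 of 12 other libraries (Fisher's exact test p = 0.0440, adjusted p = 1.0). It was the single region of 23 in the window with an unadjusted p under 0.05 in that comparison, where 3.67% of all regions had one and 0 of 135804 passed after adjustment. When at least 50% of the region had to be covered it was in 3 of 3 and 0 of 12, with a Fisher's exact p of 0.00220, the lowest that this split of 3 and 12 can give, and an adjusted p of 0.237. In the C258A-FOXA1 line it was the 1 gained region of 20 in the window, where 2.37% of all regions were gained, but it was not called there at 50% coverage. It was not gained in the WT-FOXA1 line, because DMSO replicate 1 held it. Without that library, with lists cut to the shortest or at a −log10 q of at least 5 it was gained. In all, 107 regions (0.0642%) were held by all 7 WX-02-23 libraries and by at most 4 others, again a pattern defined after this site had been seen.

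**Figure D4:**
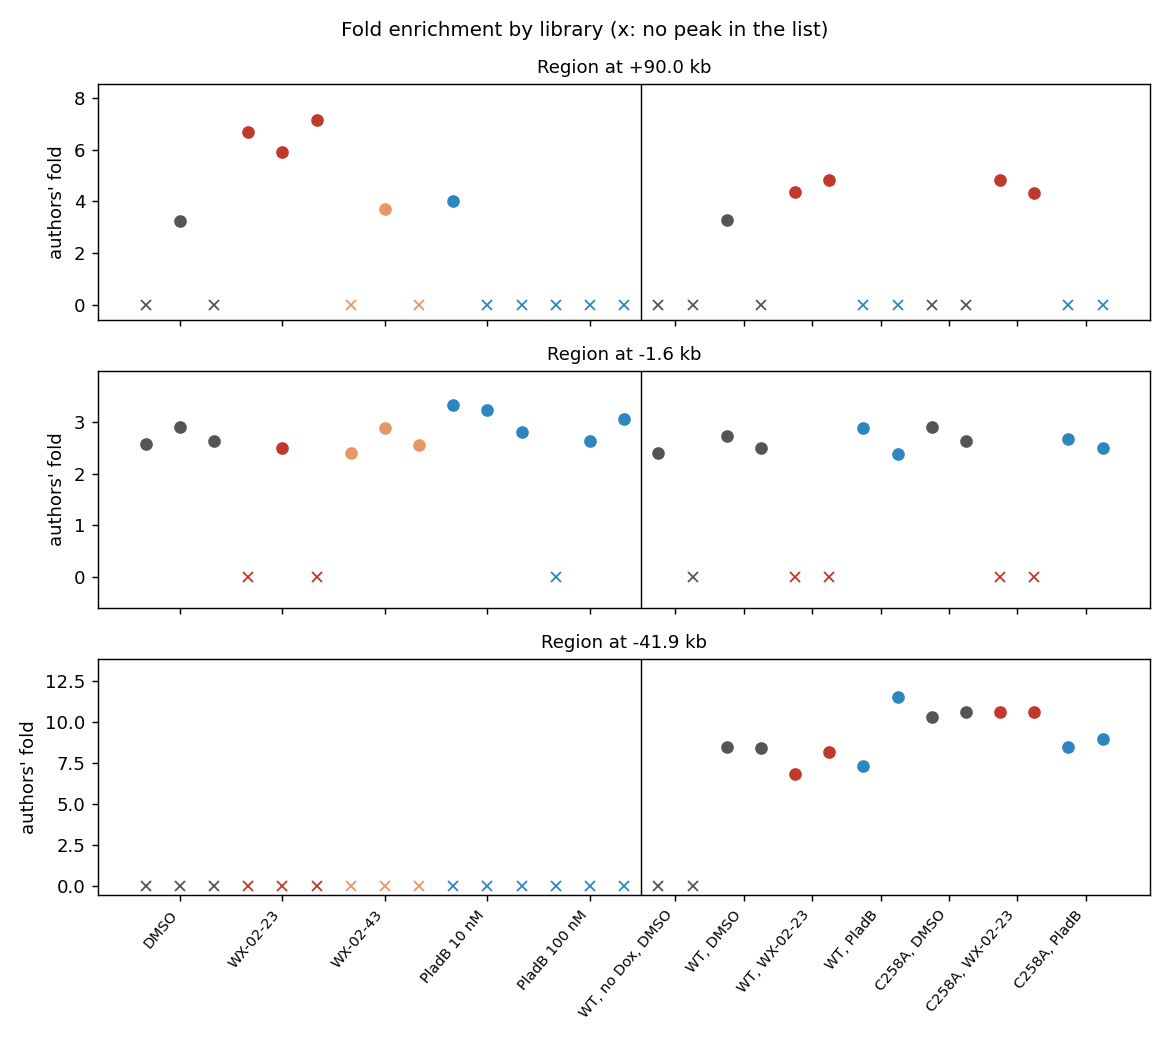
Points give the authors' fold in each library that held a peak in the regions 90.0 kb upstream, 1.58 kb downstream and 41.9 kb downstream of the HOXB13 start, crosses at 0 mark libraries without a peak, and a black line divides parental from engineered libraries. WX-02-23 libraries (red) are all filled in the top panel at 4.32 to 7.13 and empty in the middle panel except for 1 library at 2.51, and the bottom panel is filled only in libraries with Dox.

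Next to it, 88.5 kb upstream of HOXB13 at chr17:46894153-46895022, lay the strongest site of the window. It was held by all 29 libraries between the 95.01st and the 98.98th percentile of their lists. In parental cells its fold was 11.2, 12.7 and 13.0 with DMSO, 10.7, 10.8 and 10.6 with WX-02-23, 12.6, 12.4 and 11.5 with WX-02-43, 12.6, 14.6 and 12.9 with PladB at 10 nM and 14.46, 14.8 and 15.8 with PladB at 100 nM. The 3 WX-02-23 folds were the lowest of the parental libraries. Its summit reads, 106, 102 and 93 with WX-02-23, fell within the 87 to 110 reads of the other 12. The read density in the 10 kb around it, which includes the neighbouring site and enters the fold as its denominator, was 8.04, 8.19 and 8.50 times the background with WX-02-23. In parental DMSO it was 7.76, 7.01 and 7.54, so the WX-02-23 libraries were above all DMSO libraries there, while at the HOXB13 start they were below them. In the WT-FOXA1 line the density around this site was 5.998 and 4.47 with WX-02-23 and 6.92 and 6.79 with DMSO.

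The stereoisomers were compared at the same dose and time in parental cells. WX-02-23 libraries held 20, 17 and 17 of the 25 regions and WX-02-43 libraries held 17, 18 and 15. The difference was 1.33 regions (SE 1.33), and differences between single libraries ran from -1 to 5. The exact permutation p was 0.6, two-sided, where groups of 3 cannot go below 0.1. No window region was gained or lost between them, where 1.6% and 1.07% of all regions were. The site 90.0 kb upstream was in 3 of 3 WX-02-23 and 1 of 3 WX-02-43 libraries, and the site within HOXB13 in 1 of 3 and 3 of 3. Without WX-02-43 replicate 2 the first was gained, and without WX-02-23 replicate 2 the second was lost.

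Counted over the whole window, WX-02-23 libraries held the most regions of the parental groups. The DMSO libraries held 15, 16 and 15, the PladB 10 nM libraries 17, 16 and 15, and the PladB 100 nM libraries 15, 15 and 14. Against DMSO the difference was 2.67 regions (SE 1.05) for WX-02-23, where the exact permutation p, two-sided, was 0.1, the lowest possible with groups of 3, and 0.5 after Benjamini-Hochberg adjustment over 5 parental comparisons. It was 1.33 for WX-02-43 (exact p = 0.4), 0.667 for PladB at 10 nM (exact p = 0.7) and -0.667 for PladB at 100 nM (exact p = 0.6), and the adjusted p was 0.7 for each of these 3.

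Against all 12 other parental libraries, WX-02-23 libraries held 18.0 ± 1.73 regions (SD, n = 3) and the others 15.7 ± 1.155 (SD, n = 12). The difference was 2.33, where the exact permutation p, two-sided, was 0.0264, and 0.211 after adjustment over the 8 tests made on these counts. It rested on WX-02-23 replicate 1, which had 20 regions: without it the difference was 1.33 (exact p = 0.198). With lists of equal length it was also 1.33 (exact p = 0.114).

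None of the 25 regions was gained or lost by the rule between any of the 4 parental treatments and DMSO. The share of all regions that was gained and lost was 1.82% and 1.18% for WX-02-23, 0.34% and 0.369% for WX-02-43, 0.408% and 0.556% for PladB at 10 nM, and 0.187% and 1.68% for PladB at 100 nM. Nor was any gained or lost between WX-02-23 and all 12 other parental libraries, where 0.644% of all regions were gained and 0.123% lost. With shares this low, counts of 0 are near the background. Without DMSO replicate 2, 2 regions were gained with WX-02-23, the site 90.0 kb upstream and one 21.2 kb upstream.

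Dox came with a peak 41.9 kb downstream of HOXB13, at chr17:46763962-46764739. It was absent from all 15 parental libraries and from both WT-FOXA1 libraries without Dox, and present in all 12 libraries with Dox, in both engineered lines and under every treatment. Its fold in WT-FOXA1 cells was 8.44 and 8.44 with DMSO, 6.81 and 8.18 with WX-02-23 and 7.34 and 11.6 with PladB. In the C258A-FOXA1 line it was 10.3 and 10.6 with DMSO, 10.6 and 10.6 with WX-02-23 and 8.49 and 8.93 with PladB. The peaks were of middle strength, between the 48.2nd and the 79.4th percentile, with 18 to 37 summit reads. Both WX-02-23 values were level with the higher DMSO value in the C258A-FOXA1 line and below both DMSO values in the WT-FOXA1 line. Dox was given only to lines that could express WT-FOXA1 or C258A-FOXA1 under it. Dox itself and induced FOXA1 therefore cannot be told apart at this site.

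With Dox against without it, 3 of the 21 window regions held in the WT-FOXA1 line were gained, or 14.3%, where 13.2% of all regions were gained. The window was thus near the background rate, and none of its regions was lost, where 1.1% of all regions were. Beside the site above, these were a region 9.502 kb downstream, chr17:46796431-46796710, and one 30.7 kb upstream, chr17:46836631-46836966. Libraries held 15 and 15 window regions without Dox and 20 and 18 with Dox. With lists cut to the shortest only the site 41.9 kb downstream was gained. The presence pattern of that site, in all 12 libraries with Dox and in none of the other 17, was shared by 2441 regions (1.46%) of the table and by no other in the window.

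The site 9.502 kb downstream was mostly one of parental cells. It was present in 12 of 15 parental libraries with folds of 2.51 to 3.46, in both WT-FOXA1 libraries with Dox and DMSO at 3.12 and 2.77, and in no other engineered library. By the rule it was gained with Dox, lost with WX-02-23 and lost with PladB in the WT-FOXA1 line, and lost in C258A-FOXA1 against WT-FOXA1 with DMSO. PladB lost this 1 of 22 window regions, where 3.05% of all regions were lost, and gained none, where 0.915% were gained. C258A-FOXA1 lacked 2 of 22 against WT-FOXA1, where 3.82% of all regions were lost, and gained none, where 3.7% were gained. The other region that C258A-FOXA1 lacked was that 30.7 kb upstream, whose folds were 4.11 and 3.93 in WT-FOXA1 with DMSO, 4.13 in 1 library with WX-02-23, 4.77 and 5.56 with PladB, and 3.99 in 1 C258A-FOXA1 library with WX-02-23. In parental cells it was in WX-02-23 replicates 1 and 3, at 3.71 and 3.50, and in WX-02-43 replicate 1, at 3.11. It was among the weakest of the window, with 11 to 20 summit reads.

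PladB at 100 nM in the C258A-FOXA1 line neither gained nor lost a window region by the rule, where 0.806% of all regions were gained and 4.67% lost. In the WT-FOXA1 line the libraries held 20 and 18 window regions with DMSO and 16 and 14 with WX-02-23, a change that was -0.5 with lists of equal length. In the C258A-FOXA1 line they held 16 and 18 with DMSO and 17 and 15 with WX-02-23. The changes of -4.0 and -1.0 did not differ beyond the spread of the libraries, with a difference of -3.0 (SE 2.0) and an exact permutation p of 0.222 over 36 arrangements of the line labels. With lists of equal length that difference was 0. The WT-FOXA1 WX-02-23 lists were short as a whole, at 65324 ± 3524 peaks (SD, n = 2) against 86574 ± 2214 (SD, n = 2) with DMSO.

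Between parental and engineered libraries 3 of the 25 regions differed in presence by Fisher's exact test with Benjamini-Hochberg adjustment, where 18.9% of all regions did. In a window of 25 regions this count is near that share. The site 41.9 kb downstream was in 0 of 15 parental and 12 of 14 engineered libraries (Fisher's exact test, adjusted p = 4.66e-05). The 2 engineered libraries that lacked it were those without Dox, so its presence followed Dox. Both sets pool all treatments, and this p-value does not measure a difference between lines alone. A site 5.67 kb downstream, chr17:46800294-46800565, which was chosen for description after its values were seen, was in 1 of 15 and 12 of 14 (Fisher's exact test, adjusted p = 0.000365). The site 9.502 kb downstream was in 12 of 15 and 2 of 14 (Fisher's exact test, adjusted p = 0.00563), and this call was gone with lists of equal length, where 1 library of each set held it. Parental libraries held 16.1 ± 1.55 window regions (SD, n = 15) and engineered libraries 16.6 ± 1.60 (SD, n = 14), a difference of -0.438 with a permutation p of 0.486. With lists of equal length the difference was -2.85 (permutation p = 1e-05, the smallest that 100000 resamples give).

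The site 21.2 kb upstream, chr17:46827233-46827471, described after its values were seen, varied between libraries and was held by 11 of 29. It was in 3 of 3 parental WX-02-23, 2 of 3 WX-02-43, 1 of 3 DMSO, 0 of 3 PladB 10 nM and 1 of 3 PladB 100 nM libraries (Fisher's exact test of WX-02-23 against the other 12, p = 0.0769, adjusted p = 1.0). Of the 14 engineered libraries 4 held it, and none of the 4 with WX-02-23 did. Its folds were 3.20 to 4.59, with 20 to 34 summit reads. The sites not yet described were held by at least 25 libraries or by at most 4. After the site 88.5 kb upstream, the next strongest were those 50.1 kb downstream, chr17:46755443-46756344, and 62.5 kb upstream, chr17:46868085-46868901. Both were held by all 29 libraries, with folds of 10.1 to 15.3, median 12.05, and of 6.97 to 12.4, median 9.57. The weakest were the region 30.7 kb upstream and those 28.8 kb upstream, chr17:46834818-46835015, and 73.7 kb upstream, chr17:46879639-46879994. The region 28.8 kb upstream had folds of 4.13 in WX-02-23 replicate 1, 3.22 in WX-02-43 replicate 1, 4.11 in WT-FOXA1 DMSO replicate 1 and 3.53 in C258A-FOXA1 PladB replicate 1. The region 73.7 kb upstream had folds of 4.22 in parental DMSO replicate 3 and 5.24 in WX-02-43 replicate 2. The site 6.23 kb downstream, chr17:46799725-46800156, beside the densest point, was held by all 29 libraries with 40 to 83 summit reads, and that 7.94 kb downstream by 28.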

How the data were processed

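Peaks were called separately in each library on hg19, and the submitters' processing notes name Bowtie2 and MACS2. Their versions and settings, and whether duplicates were removed or reads shifted, were not stated there or in the labels. The authors deposited for each peak a score, a fold (ratio) over background, a p-value and a q-value as −log10, and the summit. The lowest −log10 q was 2.00, a q-value of 0.01. Summit reads and local background were solved from the fold and p-value, which succeeded for 504 of 505 window peaks (within 0.001 in −log10 p). Reads in 10 kb assume an extension of 150 bp, read from the steps of the background. These values, and the scaling to shared regions, were added after the data were seen and are descriptions.

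Regions, presence and gains follow the report. Tests were exact permutation tests, a permutation test of 100000 resamples, and Fisher's exact test adjusted by Benjamini-Hochberg over all regions held in the comparison. Regions named were those at HOXB13 or up to 1 kb upstream, those gained or lost, and the 3 strongest and 3 weakest held by at least 2 libraries. The members and lists were chosen with earlier results of these data known. Scripts were tested on simulated data. An annotation of hg19 was not used here. Python 3.11.15, numpy 2.4.6, pandas 2.3.3 and scipy 1.17.1 were used.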

Additional observations from a re-analysis of the deposited data

Results flagged for a closer look

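At the HOXB13 start, WX-02-23 and DMSO libraries differed in the number of peaks called, in opposite directions in 2 cell lines. In parental cells the number changed by -1.0, from 2 peaks in each of 3 DMSO libraries to 1 in each of 3 WX-02-23 libraries. All 3 parental WX-02-43 libraries had 1 peak as well. In both of these groups that peak ran across both points of cutting, so the count reflects how the region was split into peaks. In the WT-FOXA1 line both DMSO libraries had 1 peak and both libraries given WX-02-23 had 2. The C258A-FOXA1 DMSO libraries had 2 and 1, and both WX-02-23 libraries of that line had 1. The difference between the lines was not tested.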

How the results depend on the processing

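Of 518 values recomputed for 52 results, 467 kept their direction and side of the threshold or moved by less than the replicate spread. Leaving out libraries for the presence of single regions, and both alternatives for the read density, were added after seeing the data. The causes of the changes below were not tested. At 50% coverage the difference in window regions was 4.67 for parental WX-02-23 and 3 for WX-02-43 against DMSO, and -7.5 for WX-02-23 in WT-FOXA1. With equal list lengths it was 0.667 for parental PladB at 100 nM, which had been -0.667, 1.33 for WX-02-23 against the 12 others, -0.5 for WX-02-23 and 1 for Dox in WT-FOXA1, 0 for the difference between the engineered lines, and -2.85 for parental against engineered libraries (permutation p = 1e-05, the smallest that 100000 resamples give). Within 25 kb of the start it was 0.333 for PladB at 100 nM, 0.667 for WX-02-23 against the 12 others and 1 for Dox, which was 2.5 at a −log10 q of at least 5. Leaving out 1 library gave 1.33 to 2.83 for WX-02-23 against the 12 others.

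Gained window regions at 50% coverage numbered 2 for parental WX-02-23 against DMSO, 1 against WX-02-43, 1 against the 12 others, 1 for WX-02-23 in WT-FOXA1 and 0 in C258A-FOXA1. Lost ones numbered 4 for WX-02-23 in WT-FOXA1 and 1 for PladB in C258A-FOXA1. With equal lengths, 1 was gained for WX-02-23, for PladB and for Dox in WT-FOXA1, and 0 were lost with WX-02-23. At a −log10 q of at least 5, 1 was gained for WX-02-23 and for PladB in WT-FOXA1, 2 were lost for WX-02-23 in C258A-FOXA1 and 1 for C258A-FOXA1 against WT-FOXA1. Leaving out 1 library gave 0 to 2 gained and 0 to 1 lost for parental WX-02-23 against DMSO, 0 to 1 each way against WX-02-43, and 0 to 1 gained for PladB at 10 nM. In WT-FOXA1 it gave 0 to 1 gained and 2 to 4 lost for WX-02-23, 0 to 1 and 1 to 3 for PladB, and 3 to 5 and 0 to 1 for Dox. In C258A-FOXA1 it gave 1 to 2 and 1 to 3 for WX-02-23, 0 to 1 and 0 to 2 for PladB, and 0 to 1 and 2 to 4 against WT-FOXA1. The libraries whose absence moved these counts were DMSO replicate 2, WX-02-23 replicate 2, WX-02-43 replicate 2 and PladB 10 nM replicate 3 of parental cells. In WT-FOXA1 they were both libraries with Dox and DMSO, both WX-02-23 libraries, PladB replicate 2 and replicate 1 without Dox, and in C258A-FOXA1 DMSO replicate 1, both WX-02-23 libraries and PladB replicate 2.

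With the replicate block the WX-02-23 difference from parental DMSO was 2.67 (exact p = 0.25), and no call changed. Same-numbered libraries did not deviate together (r across regions of -0.0146 to 0.0157 in parental, -0.00220 to 0.0126 in WT-FOXA1 and -0.0163 to -0.00154 in C258A-FOXA1 libraries). In WT-FOXA1, with 2 libraries a group, the mean r of 0.00176 mirrors that of differently numbered libraries, -0.00176. No pairing by number was seen, but peak presence cannot show whether same-numbered libraries shared a culture.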
